A study of Mus musculus with 24 samples.

Results

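Across the 12 RNA libraries of this mouse embryonic stem cell study, the libraries numbered 1 and 2 were compared with those numbered 3 and 4. These 12 are all the RNA libraries among 24 in the series, and each set held 6, with 2 libraries from each of 3 treatments. E14 cells, a male mouse embryonic stem cell line, were transfected with an oligonucleotide containing locked nucleic acids (LNA) and antisense to tRF-GG, a fragment of glycine tRNA (called inhibitor here). The other cultures received an siRNA pool made by endonuclease digestion (esiRNA) against GFP, a control, or were mock-transfected. The other 12 libraries, 4 per treatment with the same numbers, are ribosome footprints: pieces of mRNA 26 to 32 nucleotides long that ribosomes shielded from RNases A and T1, which show where ribosomes sat. All groups share the cell line and, per the labels, the growth protocol. The labels do not say whether a number marks a culture, a day or a sequencing run, whether an RNA and a footprint library of one number share a culture, or whether libraries come from separate cultures. P-values below therefore measure the spread between these libraries, which may be technical.

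The sets were chosen by the values of these RNA libraries themselves, over all genes, so RNA differences between the sets are given as a description with no test. The footprint libraries did not enter that choice, and the same division was tested there. Whether the RNA difference depended on the inhibitor was also tested. In every comparison a difference is libraries 3 and 4 minus libraries 1 and 2.

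Embryonic stem cells grow as a mixture of states. Most cells express the pluripotency factors Oct4 (Pou5f1), Sox2 and Nanog, while a few pass at a time through a state that resembles the 2-cell embryo and express Zscan4 and related genes. Genes of the germline, such as those of meiosis, are largely kept silent in these cells by DNA methylation and Polycomb complexes. Nodal signalling turns on its own inhibitors, Lefty1 and Lefty2, and WNT signalling turns on its own inhibitor Notum. In bulk RNA, fewer cells of a kind and less RNA per cell cannot be told apart.

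The values are FPKM (fragments per kilobase of transcript, relative to all fragments of the library), divided here by a factor per library that puts the typical well-expressed gene on one level, and called scaled FPKM. The RNA libraries were not alike in composition. Rn45s, the ribosomal RNA precursor, took 62.7% of the summed FPKM in inhibitor RNA library 1, 39.1% in mock RNA library 1 and 18.1% in GFP RNA library 1, against 1.68% to 5.25% in the other 9. Genes at 1 FPKM or more numbered 6697 to 11884 in RNA libraries 1 and 2 and 11351 to 11869 in 3 and 4. Depth is not stated, and the steps between low values gave each library's depth as a share of the deepest one in its table: 25.6% to 98.9% in RNA libraries 1 and 2, and 7.38% (mock RNA library 3) to 100% in 3 and 4. Among footprint libraries the Rn45s share was 18.5% to 44.2% and relative depth 20.8% to 100%, lowest in inhibitor 3 and in mock 4 (25.3%). These depths depend on the range of values used: over 12 ranges mock RNA 3 stood at 7.25% to 26.0% and inhibitor footprint 3 at 20.7% to 59.9%. Absolute depth is unknown, so no counting interval is given.

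**Figure D1:**
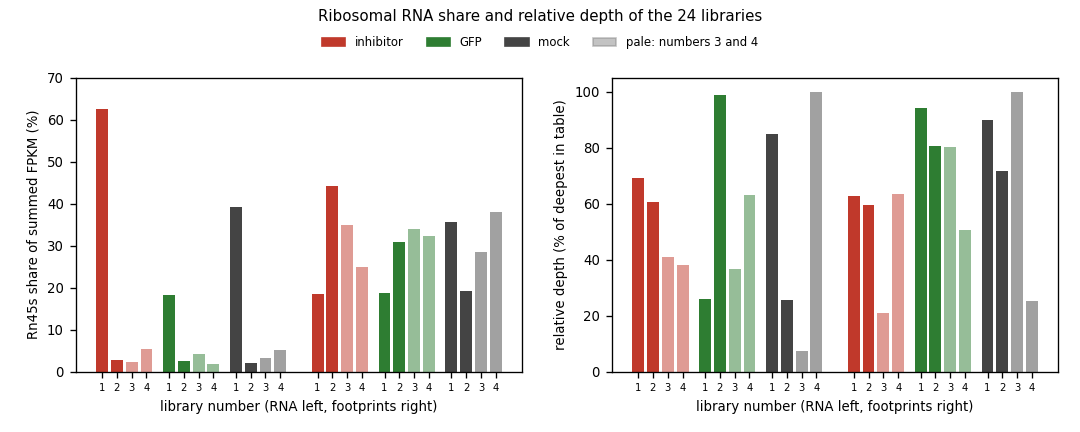
Share of the summed FPKM taken by Rn45s (left, percent) and relative depth (right, percent of the deepest library in the same table) for each of the 24 libraries, 1 bar per library, coloured by treatment, pale for numbers 3 and 4. The 3 RNA libraries numbered 1 carried 18.1% to 62.7% Rn45s, and no other RNA library was above 5.25%.

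A gene was counted as different in RNA when, in each of the 3 treatments, both libraries of one set lay above both of the other in the same direction, and the mean difference was at least 0.5 on the log2(scaled FPKM + 1) scale. Of 12557 genes with a mean of at least 0.5 scaled FPKM, 525 (4.18%) were higher in libraries 3 and 4 and 477 (3.8%) were lower, 1002 (7.98%) in all. A gene can pass that minimum through one set alone. These percentages follow from the rule that proposed the sets, and nothing is read from them. The 6 libraries of one set did not overlap the 6 of the other for 375 of the 525 and for 265 of the 477. Differences of at least 1 log2 numbered 124 and 103, and the median size was 0.76 among the higher and 0.74 among the lower genes. The median over all genes was -0.02. Just inside the minimum were Syngr2 (0.50) and Akirin1 and Gna13 (each -0.50), and just outside were Wdr55 and Tmem79 (each 0.50) and Prdx6 (-0.49) and Bach1 (-0.50).

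For the typical gene, differences between sets and within sets are given as 2 unlike measures. The set difference is between means of 2 libraries, and the within-set difference is between single libraries. Averaging narrows the first, so their sizes cannot be compared directly. Over 7423 genes with a mean of at least 5 scaled FPKM, the median size of the set difference was 0.33 in the inhibitor, 0.36 in the GFP and 0.23 in the mock libraries. The difference between the 2 libraries of one set ranged over treatments from 0.23 (GFP RNA 3 and 4) to 0.52 (GFP RNA 1 and 2). Across these genes, which share libraries' depth and composition within a set and are not independent, the set differences of inhibitor and GFP libraries correlated at Pearson r = 0.79, of inhibitor and mock at 0.50, and of GFP and mock at 0.53.

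In the ribosome footprints the same division separated many genes. Of 10661 genes tested with limma, 681 (6.39%) were higher and 1651 (15.5%) lower in libraries 3 and 4 at a Benjamini-Hochberg adjusted p under 0.05, 2332 (21.9%) in all. Libraries of the same number deviated together across treatments in RNA and, less fully, in footprints, and a set holds only 2 numbers. A test that counts 6 libraries a set as separate may therefore give p-values that are too small. With the 3 treatments averaged per number, limma compared 2 numbers with 2 and called 8 genes higher and 43 lower at an adjusted p under 0.05, while 2596 had an unadjusted p under 0.05. Of the 8 and 43, 6 and 39 were among the 681 and 1651. Calls below are from the test over 12 libraries, and many do not pass over the numbers. Those that passed over the numbers too include Sycp3, Hormad1, Taf7l, Tuba3a, Zscan4f, Nqo1, Pttg1, Fbxo15, Lefty2 and Trh (limma adjusted p = 0.0365 to 0.0473). That test takes the numbers as labelled, though mock footprints 1 and 2 followed the other treatments' 2 and 1 (r = 0.48 to 0.72). Averaging them so can narrow the spread between numbers 1 and 2, and these p-values too may be too small. In footprints 1 and 2 Zscan4f stood at 7.13 and 11.9 scaled FPKM in inhibitor, 4.42 and 18.5 in GFP, and 20.2 and 4.77 in mock. In footprints, as in RNA, a gene can pass the minimum mean through one set alone. The split between directions depended on the scaling: quantile normalization gave 1039 higher and 1019 lower (50.5% of calls higher, against 29.2%), and FPKM as deposited gave 31 higher and 605 lower with the median of all genes at -0.27. In RNA, FPKM as deposited put the median of all genes at 0.60 and gave 1326 higher and 8 lower, so that directions are relative to that shift. Without the libraries numbered 1, limma called 52 higher and 146 lower in footprints, with 9 libraries in the fit. Leaving out GFP footprint 3 gave 441 higher and 996 lower, and the lower count fell to between 1051 and 1075 without inhibitor 1, GFP 1, mock 2 or mock 3.

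Of the 525 higher genes, 449 were tested in footprints and 182 of them (40.5%, against 6.39% of all genes tested) also rose, while 10 passed in the opposite direction. Of the 477 lower genes, 412 were tested and 250 (60.7%, against 15.5%) also fell, and 0 passed in the opposite direction at the limma threshold. In the test over library numbers, 4 of the 449 rose and 21 of the 412 fell, and 1 of the higher genes passed in the opposite direction. The 182 were 26.7% of the genes higher in footprints and the 250 were 15.1% of those lower. The footprint difference had the sign of the RNA difference for 397 of 449 and 376 of 412 genes, with medians of 0.36 and -0.53, and over all tested genes the median was -0.10. Across 10489 genes, the 2 differences correlated at Pearson r = 0.52 and Spearman rho = 0.58, given as a description, since genes are not independent.

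**Figure D2:**
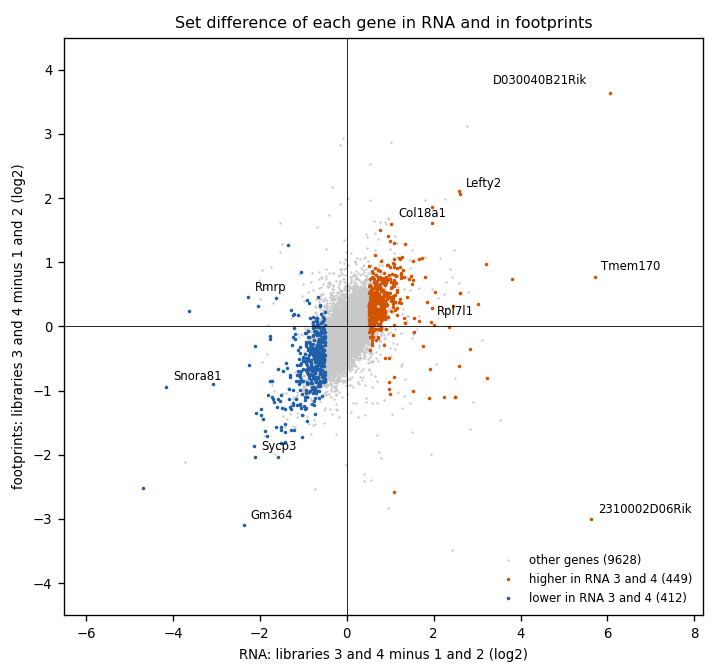
Difference of each gene between libraries 3 and 4 and libraries 1 and 2 (log2) in RNA (horizontal) and in ribosome footprints (vertical), 1 point per gene, for genes with a value in both. Most of the 449 genes higher in RNA lie above 0 in footprints (397) and most of the 412 lower genes lie below 0 (376), while 2310002D06Rik stands at the lower right.

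Germline genes were lower in libraries 3 and 4 as a group. Of 22 on the list, 20 passed the minimum in RNA and all 20 had a negative difference; 12 counted as lower and 0 as higher, with a median of -0.96. Their summed level was 167 to 295 scaled FPKM in RNA libraries 1 and 2 and 70.8 to 141 in 3 and 4. In footprints 18 of the 19 tested fell at the limma threshold and 0 rose, with a median of -1.15. Of the 18, 16 kept the call whichever single library was left out. Without the libraries numbered 1, 11 were called, and 5 passed over the library numbers. Sycp1 and Tdrkh, counted among the 18, fell below the minimum mean without the libraries numbered 1, so their calls carry no weight. The median stayed negative under every scaling tried, at -0.63 in RNA and -1.32 in footprints with FPKM as deposited, where 0 of 19 counted as lower in RNA and 17 fell in footprints. Sycp3, a structural protein of the meiotic chromosome axis, lay between 6.65 and 29.6 scaled FPKM in RNA libraries 1 and 2 (median 13.2) and between 1.46 and 6.05 in 3 and 4 (median 1.61). The sets did not overlap, and the difference was -2.12 ± 0.44 (SE from a fit with treatment and set, 12 libraries, as for every RNA error below). In footprints Sycp3 stood at 8.96 to 23.5 and at 1.003 to 4.39, again without overlap, and fell by 2.04 on the log2 scale (SE 0.31; limma adjusted p = 0.00221, 12 libraries).

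Other germline genes followed it. Stra8, which starts the meiotic programme, had 2.35 to 7.18 scaled FPKM (median 4.27) in RNA libraries 1 and 2 and 0 to 1.24 (median 0.454) in 3 and 4, a difference of -1.92 ± 0.29. It fell by 1.45 in footprints (SE 0.18; limma adjusted p = 0.000742). Dazl, an RNA-binding protein of germ cells, went from a median of 7.42 to 2.21 in RNA (-1.58 ± 0.24) and fell by 1.13 in footprints (SE 0.15; limma adjusted p = 0.000886). Tuba3a, an alpha-tubulin of the testis, had medians of 28.8 and 8.98 in RNA (-1.62) and fell by 1.57 in footprints (limma adjusted p = 6.92e-05). For Stra8, Dazl and Tuba3a alike, no RNA library of one set reached into the range of the other. Mael and Tex19.1, which hold retrotransposons in check, had RNA differences of -0.96 and -0.97 and fell by 1.15 and 1.29 in footprints. Ddx4, a germ cell RNA helicase, had an RNA difference of -0.72 that did not meet the rule and fell by 0.86 in footprints (limma adjusted p = 0.00754).

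The promoters of 4 genes of this group are shown because they differed together and hold the same letters. Each runs from 250 bases before to 50 bases after the gene's start in RefSeq (GRCm38.p6), 5′ to 3′ on the gene's strand, with every CACGTG in capitals; CACGTG reads the same on both strands and is known as an E-box, the element bound by MYC, MAX and MGA. Besides Sycp3 they are Hormad1, which marks unpaired chromosome axes in meiosis, Stk31, a testis kinase, and Taf7l, a germ cell relative of a general transcription factor; the 4 were chosen for the motif after their values were seen.
Sycp3, chr10:88459337-88459636, plus strand: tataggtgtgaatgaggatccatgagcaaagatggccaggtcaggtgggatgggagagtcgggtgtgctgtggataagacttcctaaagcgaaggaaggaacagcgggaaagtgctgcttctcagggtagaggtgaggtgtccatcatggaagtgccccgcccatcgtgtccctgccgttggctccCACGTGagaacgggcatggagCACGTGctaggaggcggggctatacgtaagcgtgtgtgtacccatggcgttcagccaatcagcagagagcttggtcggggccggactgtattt
Hormad1, chr3:95559427-95559726, plus strand: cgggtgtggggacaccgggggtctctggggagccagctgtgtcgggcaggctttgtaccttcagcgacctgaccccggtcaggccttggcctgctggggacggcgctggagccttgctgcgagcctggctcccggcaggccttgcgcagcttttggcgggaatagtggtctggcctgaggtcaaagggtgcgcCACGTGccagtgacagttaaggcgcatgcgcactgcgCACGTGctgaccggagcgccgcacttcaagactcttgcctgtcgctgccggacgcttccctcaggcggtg
Stk31, chr6:49395289-49395588, plus strand: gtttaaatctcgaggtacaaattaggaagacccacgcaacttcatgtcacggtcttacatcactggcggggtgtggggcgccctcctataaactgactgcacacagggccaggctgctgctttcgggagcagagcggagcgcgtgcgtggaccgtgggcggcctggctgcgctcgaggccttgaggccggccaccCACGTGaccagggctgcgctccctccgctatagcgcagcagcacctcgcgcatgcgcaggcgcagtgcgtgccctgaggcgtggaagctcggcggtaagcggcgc
Taf7l, chrX:134476441-134476740, minus strand: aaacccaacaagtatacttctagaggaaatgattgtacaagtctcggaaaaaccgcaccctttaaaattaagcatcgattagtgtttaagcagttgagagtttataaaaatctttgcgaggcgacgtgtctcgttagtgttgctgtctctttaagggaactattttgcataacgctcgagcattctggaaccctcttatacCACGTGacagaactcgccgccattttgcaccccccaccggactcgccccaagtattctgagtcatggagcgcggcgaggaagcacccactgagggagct
Sycp3 holds CACGTG at 64 and 43 bases before the start and Hormad1 at 57 and 20, Stk31 holds it at 55 and Taf7l at 49. Hormad1 had medians of 10.8 and 3.79 scaled FPKM in RNA (-1.43 ± 0.37) and fell by 1.52 in footprints (limma adjusted p = 6.92e-05). Stk31 had medians of 5.87 and 2.13 (-1.24 ± 0.20) and fell by 1.19 in footprints. Taf7l had medians of 3.97 and 1.15 (-1.29 ± 0.23) and fell by 1.61 in footprints.

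Of the 20 germline genes with a promoter in the RefSeq table, 9 (45%) held CACGTG, against 1956 of 26794 promoters of the table (7.30%) and 10.7% of the 9241 promoters of genes described in RNA. Among all genes the motif did not go with the direction: 10.3% of promoters of genes lower in RNA and 11.9% of those higher held it. Of the 11 germline genes that counted as lower in RNA and have a promoter in the table, 6 held it. The other motifs were searched on both strands after the lists' values were seen. TCCCGC, part of the E2F site, was in 55% of the germline promoters and in 37.1% of those of genes described in RNA (20.2% of the whole table). ACGTG, which CACGTG contains, was in 70%, against 26.5% and 19.8%. A match is a match of letters, not a binding site.

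Genes of the 2-cell-like state were also lower in libraries 3 and 4. Of 44 measured in RNA, 9 counted as lower and 0 as higher (median -0.86), and 43 of 44 differences were below 0. In footprints some members, such as Tdpoz3, Zscan4c and Zscan4d, passed the minimum mean only through libraries 1 and 2. Their calls carry no weight. Neither do those of Dux and Abcb5, which fell below the minimum mean without the libraries numbered 1. How many such members the list holds was not counted. With them included, 22 of 41 fell in footprints and 0 rose (median -0.89). This count was less steady than that of the germline genes. Under quantile normalization 11 fell, and 9 did without the 2 shallowest footprint libraries. Of the 22, 8 kept the call whichever library was left out. Without the libraries numbered 1, 4 were called, and 4 over the library numbers, Zscan4c among the latter. The summed level of the list was 146 to 816 scaled FPKM (median 330) in RNA libraries 1 and 2 and 102 to 383 (median 134) in 3 and 4, so that the sets overlapped. Zscan4f, a zinc finger protein of the 2-cell-like state, had 5.69 to 23.2 scaled FPKM (median 12.4) in RNA libraries 1 and 2 and 1.69 to 6.98 (median 3.75) in 3 and 4. The highest library of the second set lay above the lowest of the first, and the difference was -1.43. In footprints Zscan4f stood at 4.42 to 20.2 and at 1.25 to 3.14, without overlap, and fell by 1.81 (SE 0.38; limma adjusted p = 0.0103). Of the 5 Zscan4 genes, 4 counted as lower in RNA and 4 fell in footprints (Zscan4b -1.86, Zscan4c -1.06, Zscan4d -0.9997 and Zscan4f). Among these 4 footprint calls, those of Zscan4c and Zscan4d carry no weight, as said above. The Zscan4 copies are near-identical and RSEM divides shared reads among them, so their separate values are uncertain. The same holds for the Tdpoz and Usp17l families on this list.

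**Figure D3:**
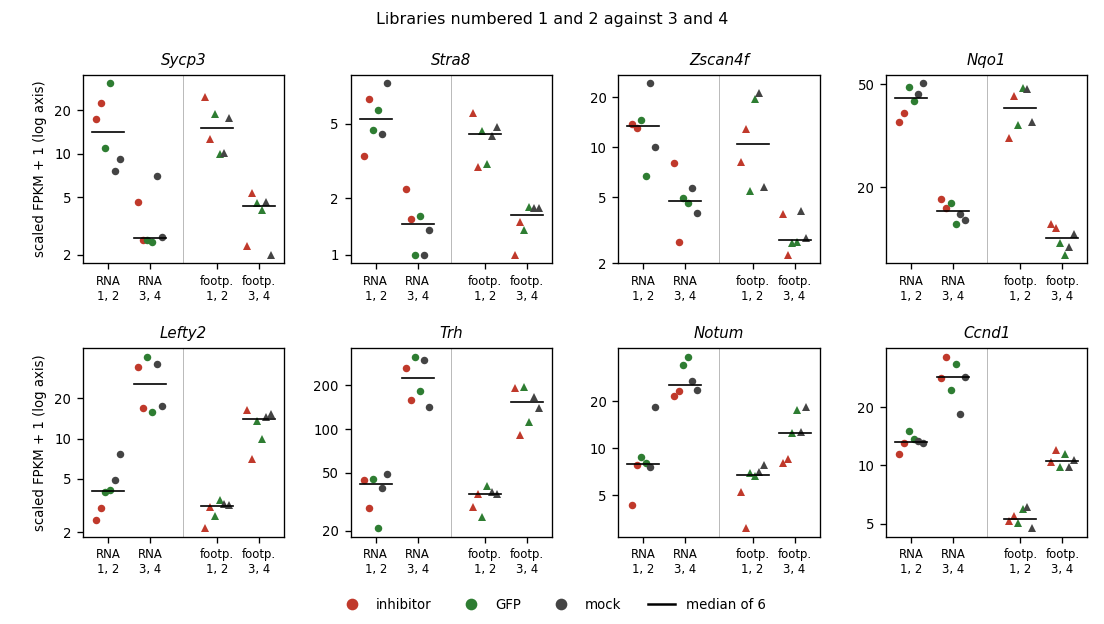
Scaled FPKM + 1 (log axis) of 8 genes in each of the 24 libraries, 1 point per library, circles for RNA and triangles for footprints, coloured by treatment, with the median of 6 as a bar. In all 4 genes of the upper row the median is lower in libraries 3 and 4, and in all 4 genes of the lower row it is higher, in both assays.

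The Rhox cluster and other reproductive genes of the X chromosome showed 2 of 6 lower in RNA (median -0.74) and 2 of 6 fell in footprints (median -0.92). Rhox6, a homeobox gene of placenta and germ cells, had medians of 3.66 and 0.631 scaled FPKM in RNA (-1.49) and fell by 1.27 in footprints (limma adjusted p = 0.00574). Among imprinted genes, 2 of 28 were higher and 2 lower in RNA, and 3 of 20 rose and 3 fell in footprints, where 6.39% and 15.5% of all genes did. Dio3, a deiodinase that inactivates thyroid hormone and among the 3 that fell, had medians of 4.66 and 0.559 scaled FPKM in RNA (-1.67). Its footprint difference was -1.17. In footprint libraries 3 and 4 Dio3 stood at 0 to 0.246, and it passed the minimum mean only through libraries 1 and 2, so no p is given. Meg3, a long noncoding RNA of the same imprinted domain, was higher by 1.12, and Igf2, a fetal growth factor, by 1.16; in footprints their differences were 0.26 and 0.29, and neither passed (limma adjusted p = 0.182 and 0.171).

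Genes of the oxidative stress response were lower in part. Of 15 targets of NRF2 and metallothioneins, 4 counted as lower in RNA and 0 as higher, with a median of -0.55, which turned to 0.31 with FPKM as deposited, under the shift of all genes to 0.60. In footprints 7 fell and 0 rose (median -0.50; 1 of the 7 was called without the libraries numbered 1). Nqo1, a quinone reductase, did not overlap between the sets: 34.8 to 49.3 scaled FPKM (median 43.3) in RNA libraries 1 and 2 against 13.4 to 16.95 (median 15.2) in 3 and 4, a difference of -1.42. In footprints Nqo1 stood at 29.8 to 47.4 and at 9.98 to 13.4 and fell by 1.65 (SE 0.14; limma adjusted p = 6.91e-05). Txnrd1, a thioredoxin reductase chosen after its values were seen, had an RNA difference of -0.65 and fell by 1.01 in footprints, whereas Hmox1, which degrades haem, had differences of 0.22 and 0.25 and did not pass.

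Among 23 p53 targets 4 were lower and 0 higher in RNA, where 3.8% and 4.18% of all genes were. In footprints 6 fell and 2 rose, where 15.5% and 6.39% of all genes did. Of these 8 footprint calls 2 were made without the libraries numbered 1, 3 with FPKM as deposited and 0 over the library numbers (limma in each). Mdm2, which marks p53 for degradation, had medians of 51.7 and 29.8 scaled FPKM in RNA (-0.75; 0.10 with FPKM as deposited) and fell by 0.70 in footprints (limma adjusted p = 0.00865). Bax, which promotes cell death and was chosen after its values were seen, rose by 0.80 in footprints. Atf3, an early stress transcription factor, had medians of 4.94 and 1.69 (-1.31) and fell by 0.79 in footprints (limma adjusted p = 0.00781). Asns, which makes asparagine, had medians of 233 and 138 (-0.74; 0.13 with FPKM as deposited) and fell by 0.96. Of the ATF4 and amino acid list to which it belongs, 2 of 25 were higher and 1 lower in RNA, and 8 of 24 rose and 3 fell in footprints (medians 0.16 and 0.10; -0.0013 in RNA without the libraries numbered 1). Of the 11 footprint calls 0 were made without the libraries numbered 1, 1 with FPKM as deposited and 0 over the library numbers (limma in each). Of 25 genes of G2 and M phase 1 was lower in RNA (3.8% of all genes were) and 7 fell in footprints (15.5% of all genes did; 1 of the list without the libraries numbered 1, 1 with FPKM as deposited and 1 over the library numbers). Pttg1 (securin), which holds sister chromatids together until anaphase, had 19.7 to 39.5 scaled FPKM in RNA libraries 1 and 2 and 1.86 to 10.2 in 3 and 4 (-1.84) and fell by 1.71 in footprints (SE 0.16; limma adjusted p = 9.65e-05).

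Among genes higher in libraries 3 and 4, the Nodal inhibitors had large differences. Lefty2 had 1.47 to 6.70 scaled FPKM (median 3.05) in RNA libraries 1 and 2 and 14.7 to 39.8 (median 24.7) in 3 and 4, without overlap, a difference of 2.597 ± 0.35. In footprints it stood at 1.15 to 2.48 and at 5.99 to 15.5 and rose by 2.07 (SE 0.19; limma adjusted p = 9.65e-05). Lefty1 had medians of 3.97 and 16.3 in RNA (1.95) and rose by 1.87 in footprints (limma adjusted p = 0.000381). The ligand itself showed a small difference: Nodal had medians of 43.1 and 44.1 in RNA (0.04) and a footprint difference of 0.07 (limma adjusted p = 0.81). Of 8 measured genes of the Nodal and Lefty list, 3 were higher in RNA and 2, the Lefty genes, rose in footprints.

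The WNT inhibitor Notum had medians of 6.91 and 24.2 scaled FPKM in RNA (1.72) and rose by 1.07 in footprints (limma adjusted p = 0.00112). Ccnd1, a cyclin of the G1 phase on the same list of WNT targets, had 10.4 to 14.01 in RNA libraries 1 and 2 and 17.4 to 35.4 in 3 and 4 (1.06) and rose by 0.99 in footprints (limma adjusted p = 0.000313). Axin2, a common readout of WNT signalling, had a difference of 0.49 in RNA, which did not meet the rule, and of 0.16 in footprints (limma adjusted p = 0.56). Over the list 2 of 10 genes were higher in RNA and 2 of 7 rose in footprints. Trh, the precursor of thyrotropin-releasing hormone, went from 19.8 to 48.1 scaled FPKM (median 40.7) in RNA libraries 1 and 2 to 140 to 315 (median 222) in 3 and 4. Its RNA difference was 2.57 ± 0.31 and it rose by 2.12 in footprints (SE 0.20; limma adjusted p = 9.65e-05). Bmp4, a ligand that favours self-renewal, had medians of 26.3 and 50.2 in RNA (0.91) and rose by 0.69 in footprints (limma adjusted p = 0.00835). Its list of BMP and ID genes had a median of -0.27 in RNA (0.23 with FPKM as deposited and 0.041 without the libraries numbered 1), with 1 of 10 higher and 1 lower, and 1 of 9 rose and 1, the inhibitor Smad6, fell in footprints (0 called in limma without the libraries numbered 1 or over the library numbers). Smad6 passed the minimum mean in footprints only through libraries 1 and 2, so its call carries no weight. That call was also lost in 10 of 12 fits that left out 1 library.

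Genes of sterol synthesis and uptake, on a list that also holds the fatty acid genes Scd2 and Fasn, were higher as a group in RNA. Of 22, 8 counted as higher and 0 as lower, with a median of 0.51, and in footprints 7 rose and 1 (Sc5d) fell, with a median of 0.22. Under FPKM as deposited 0 of 22 passed in footprints with the median at 0.0014. Without the libraries numbered 1, 2 passed, and 0 over the library numbers. Scd2, a fatty acid desaturase on the list, had 42.4 to 97.7 scaled FPKM (median 56.1) in RNA libraries 1 and 2 and 108 to 153 (median 135) in 3 and 4, without overlap (1.09), and rose by 0.71 in footprints (SE 0.16; limma adjusted p = 0.00990). Fdft1, an enzyme of cholesterol synthesis chosen after its values were seen, had an RNA difference of 0.72 and rose by 0.41 in footprints (limma adjusted p = 0.0149).

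Chaperones of the endoplasmic reticulum showed the same direction. Of 17, 6 were higher and 0 lower in RNA (median 0.46), and 8 rose and 0 fell in footprints (median 0.31). In footprints 0 passed with FPKM as deposited, 1 without the libraries numbered 1 and 0 over the library numbers. Hyou1, a chaperone induced by low oxygen, had medians of 44.9 and 80.7 scaled FPKM in RNA (0.97) and rose by 0.73 in footprints (limma adjusted p = 0.00103). Pdia6, a disulphide isomerase, had 64.5 to 89.1 in RNA libraries 1 and 2 and 154 to 182 in 3 and 4 (1.07), while its footprint difference of 0.31 did not pass (limma adjusted p = 0.0949). Hspa5 (BiP), the main chaperone of that compartment, had differences of 0.34 and 0.20 and passed in neither. In the list of matrix and adhesion genes 3 of 24 were higher in RNA, where 4.18% of all genes were. In footprints 6 rose and 1 fell (median 0.17, and -0.07 with FPKM as deposited), where 6.39% and 15.5% of all genes did. Of these 7 calls 0 were made without the libraries numbered 1, 1 with FPKM as deposited and 0 over the library numbers (limma in each). Col18a1, a basement membrane collagen, had medians of 62.9 and 137 (1.02) and rose by 1.599 (limma adjusted p = 0.00443), and Spp1 (osteopontin), a secreted phosphoprotein from the naive pluripotency list, had 1.004 and rose by 1.33 (limma adjusted p = 0.00186).

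Pluripotency genes were at high levels in both sets. Core pluripotency genes were higher in 2 of 18 cases and lower in 0 in RNA (median 0.20), and in footprints 4 of 17 rose and 1 fell. Over all genes 4.18% were higher and 3.8% lower in RNA, and 6.39% rose and 15.5% fell in footprints. Of these 5 core calls in footprints 2 were made without the libraries numbered 1, 1 with FPKM as deposited and 0 over the library numbers (limma in each). Pou5f1 had 408 to 767 scaled FPKM (median 550) in RNA libraries 1 and 2 and 744 to 1225 (median 806) in 3 and 4 (0.67), with overlap, and a footprint difference of 0.22 that did not pass (limma adjusted p = 0.108). Sox2 had differences of 0.14 and 0.25, and Zfp42 (Rex1) of -0.03 and -0.20, and neither passed. The naive pluripotency list had 1 of 24 higher and 2 lower in RNA (median -0.01), and in footprints 2 of 24 rose and 5 fell. These counts stand beside the shares of all genes given above, and nothing is read from them. Of the 7 footprint calls 4 were made without the libraries numbered 1, 4 with FPKM as deposited and 1 over the library numbers (limma in each). Fbxo15, a target of Oct4, had an RNA difference of -0.75 and fell by 1.45 in footprints (limma adjusted p = 1.99e-05). In the formative list 0 of 15 were higher and 1 lower in RNA, and 6 rose and 1 fell in footprints, among them Cdh2 (N-cadherin, 0.68) and Sox4 (0.63). Over all genes 6.39% rose, and of the 7 calls 1 was made without the libraries numbered 1, 1 with FPKM as deposited and 0 over the library numbers (limma in each).

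Markers of other cells that a stem cell culture can hold were checked. Of 18 fibroblast markers, 6 passed the minimum in RNA and 0 of them differed by the rule; the summed level of all 18 was 58.0 to 139 scaled FPKM in RNA libraries 1 and 2 and 103 to 133 in 3 and 4, and Col1a1, Col1a2 and Col3a1 were at or below 0.348 in every RNA library. In footprints the fibroblast sum was 47.8 to 99.2 and 98.8 to 114, and 1 of 4 tested markers rose. Vim (vimentin), a member of this list, alone stood at 51.002 to 129 in RNA libraries 1 and 2 and 90.8 to 117 in 3 and 4. Its footprint levels were 41.5 to 89.95 and 83.9 to 106. The sums thus largely carry the level of Vim and are not read as fibroblast content. Any part of fibroblasts in the results was not tested. Of 18 measured primitive endoderm genes 1 was higher in RNA, with summed levels of 376 to 996 and 751 to 972, and Gata6 differed by -0.19 and Sox17 by -0.34. Mesendoderm genes summed to 2.73 to 7.12 and 2.33 to 3.80. Eomes, the only one of 13 measured, counted as lower in RNA (-0.66), and its footprint difference of -0.42 did not pass. Trophoblast genes summed to 52.7 to 103 and 41.2 to 90.2. Cdx2, Elf5 and Gata3 were at or below 0.756 in every RNA library. Of 11 trophoblast genes measured in RNA, 1 was higher and 2 lower (median -0.37). In footprints 2 of 11 rose and 3 fell (median -0.46), where 6.39% and 15.5% of all genes did. Of these 5 calls 4 held whichever library was left out. Without the libraries numbered 1, 4 were made, 2 with FPKM as deposited and 0 over the library numbers (limma in each). Krt8, an epithelial keratin on that list, had medians of 13.0 and 4.56 in RNA, outside the rule, and fell by 1.57 in footprints (limma adjusted p = 0.00964), while Cdh3 (P-cadherin) had medians of 2.61 and 6.74 (1.22) and rose by 0.92 (limma adjusted p = 0.00142). Of 7 measured neuroectoderm genes, 0 differed by the rule in RNA and 0 of 4 passed in footprints.

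**Figure D4:**
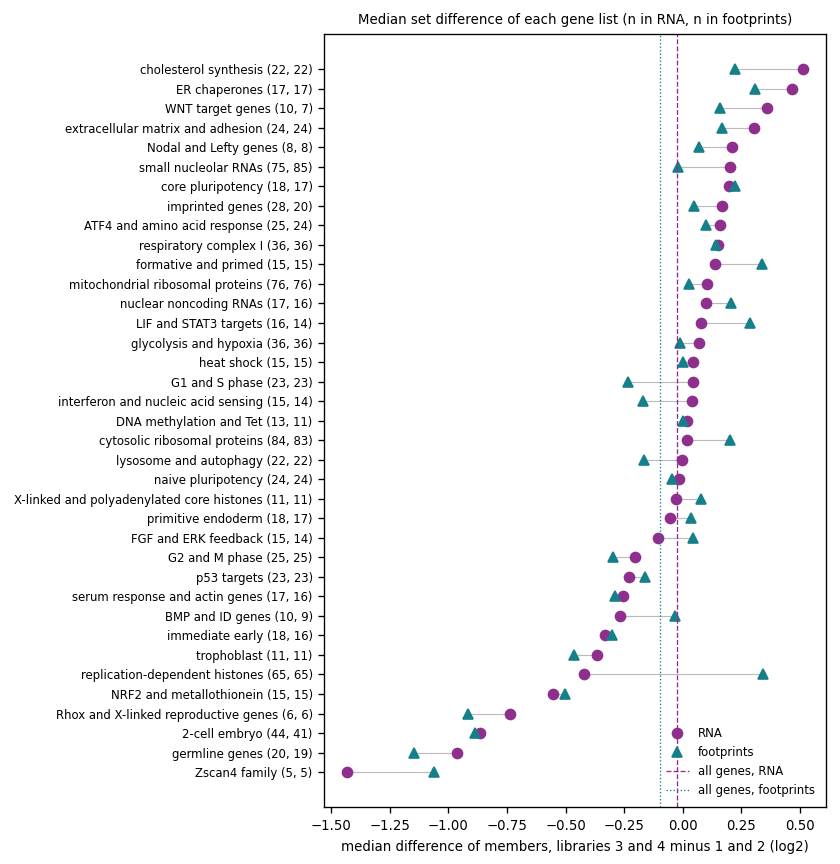
Median difference of the members of each gene list, libraries 3 and 4 minus 1 and 2 (log2), in RNA (circles) and footprints (triangles), for lists with at least 5 members measured in both; numbers in brackets are members in RNA and in footprints, and broken lines mark the medians of all genes. Zscan4 and germline genes stand lowest in both assays, and the replication-dependent histones stand on opposite sides, at -0.42 in RNA and 0.34 in footprints.

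Replication-dependent histone genes, whose mRNAs end in a stem-loop in place of a poly(A) tail, had a median of -0.42 in RNA (11 of 65 lower, 0 higher; 0.43 with FPKM as deposited) and of 0.34 in footprints (18 rose, 3 fell; 9 of these 21 kept the call whichever library was left out). Calls in footprints numbered 11 under quantile normalization, 2 with FPKM as deposited, 1 without the libraries numbered 1 and 1 over the library numbers. None of the 11 genes lower in RNA rose in footprints by the limma test, and 1 (Hist1h2bb) fell. Hist1h3f had 139 to 241 scaled FPKM in RNA libraries 1 and 2 and 32.4 to 76.4 in 3 and 4 (-1.76), and its footprint difference was -0.20 (limma adjusted p = 0.333). Ribosomal protein genes had 5 of 84 higher and 2 lower in RNA and 17 rose and 3 fell of 83 in footprints (median 0.20; -0.04 with FPKM as deposited). The RNA counts stand beside 4.18% higher and 3.8% lower over all genes. The 20 footprint calls became 6 under quantile normalization, 2 with FPKM as deposited, 1 without the libraries numbered 1 and 0 over the library numbers (limma in each). Within them Rps16 had medians of 314 and 97.9 in RNA (-1.63) and 541 and 746 in footprints (0.44, limma adjusted p = 0.0513). Rpl7l1 had medians of 62.6 and 222 in RNA (1.93) and 27.9 and 28.4 in footprints (0.08, limma adjusted p = 0.69).

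The largest RNA differences by the naming rule were mostly of small or little-known RNAs. D030040B21Rik, a long noncoding RNA on chromosome 1, had 0.228 to 1.77 scaled FPKM in RNA libraries 1 and 2 and 38.3 to 344 in 3 and 4 (6.05 ± 0.52). It was listed at 0 in all 6 footprint libraries of the first set and at 1.602 to 168 in the second, through which alone it passed the minimum mean, so no p is given. Tmem170, a membrane protein gene on chromosome 8, had 4.20 to 10.3 and 164 to 2323 (5.71 ± 0.65), the highest in mock RNA 3. Its footprint difference was far smaller, 0.77 (limma adjusted p = 0.0224, not past the threshold without inhibitor 1, GFP 3, mock 1 or mock 3). 2310002D06Rik was listed at 0 in all 6 RNA libraries numbered 1 and 2 and stood at 4.88 to 181 in the others, whereas in footprints it fell by 3.01 (SE 0.44; limma adjusted p = 0.00307). The next by size were Mir3063, A330041J22Rik, Gm12070, Gm12830 (listed at 0 in the 6 libraries numbered 1 and 2), the pseudogene Rpl14-ps1 (3.21, with a rise of 0.97 in footprints), Gm10785 and the pair Mir8099-1 and Mir8099-2, which carry identical values and cannot be told apart. Whether counting used the strand is not given in the sources used here, so antisense and overlapping genes such as these are uncertain.

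Among the largest negative RNA differences were 4 guide RNAs of small nucleolar particles. Snora81 had 31.1 to 628 scaled FPKM (median 142) in RNA libraries 1 and 2 and 2.20 to 10.1 (median 6.87) in 3 and 4 (-4.16), and Snora23, Snord17 and Snora74a had -4.68, -3.63 and -3.08. Over the list of small nucleolar RNAs, however, 4 of 75 were lower and 0 higher in RNA with a median of 0.20, which was -0.29 among those with a mean of at least 5 scaled FPKM and -0.13 without mock RNA 4. Rmrp, the RNA of a ribonuclease that processes ribosomal RNA, had 5866 to 38728 in the first set and 1852 to 3130 in the second (-2.28), with no such difference in footprints (0.45; limma adjusted p = 0.392). The others were the predicted or little-known genes Gm364, Gm6682, Gm1821, Gm14511, 5730408K05Rik and Gm13212. Gm364, on the X chromosome, had medians of 11.4 and 0.804 in RNA (-2.38) and fell by 3.10 in footprints (limma adjusted p = 0.0122).

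The footprint differences added 9 genes by the naming rule, of which Trh is described above. Car9, a carbonic anhydrase induced by low oxygen, had 4.53 to 10.4 scaled FPKM in footprint libraries 1 and 2 and 18.5 to 147 in 3 and 4 and rose by 2.27 (limma adjusted p = 0.00792), while its RNA was at or below 0.677 in every library. Snora61 was listed at 0 in the 6 footprint libraries numbered 1 and 2 and stood at 0 to 58.6 in the others, through which alone it passed the minimum mean, so no p is given. Snord55 and Rprl3 rose by 2.83 and 2.87, Rprl3 not past the threshold without any 1 of 8 libraries: inhibitor 1 or 3, GFP 1, 2 or 3, or mock 2, 3 or 4. Snora31 and Snora43 fell by 2.53 and 2.88, Snora43 not past the threshold without any 1 of 9 libraries (all but inhibitor 4, GFP 4 and mock 4). 4930528D03Rik fell by 2.58 in footprints and had an RNA difference of 1.09. Rnu7, the RNA that processes histone mRNA ends, was listed at 0 in the 6 footprint libraries numbered 3 and 4 and at 0 to 5873 in the first set, which alone took it past the minimum mean, so no p is given. It was listed at 0 in every RNA library.

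Genes of the X chromosome, which E14 cells carry in a single copy, were lower than autosomal genes. Among genes with a mean of at least 5 scaled FPKM, the 209 on X had a median RNA difference of -0.24, with 158 of 209 (75.6%) below 0, against a median of 0.01 and 49.1% of 7199 autosomal genes. Of the X-linked genes 30 (14.4%) counted as lower and 5 as higher, against 3.32% and 5.18% of autosomal genes. The footprints gave a median of -0.26 for 145 X-linked genes, of which 43 (29.7%) fell and 5 rose, against -0.05 for 4418 autosomal genes with 15.4% lower. The X median was -0.30, -0.35 and -0.12 in RNA of inhibitor, GFP and mock libraries and -0.25, -0.29 and -0.31 in footprints. With FPKM as deposited the X median in RNA was 0.52 and the autosomal one 0.77, so that the gap between them was -0.24, and over all settings the gap was -0.32 to -0.12 in RNA and -0.26 to -0.18 in footprints. No autosome had a median below -0.14 in RNA or below -0.20 in footprints. The grouping by chromosome was chosen after the values were seen, and its genes are not independent.

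**Figure D5:**
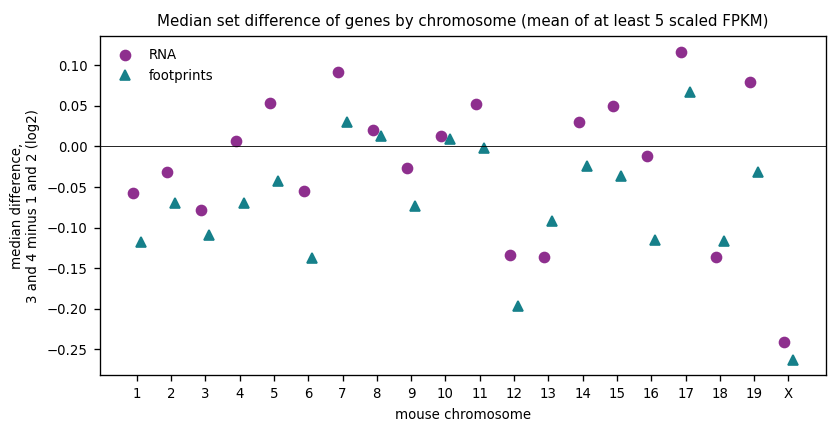
Median difference of the genes of each chromosome, libraries 3 and 4 minus 1 and 2 (log2), in RNA (circles) and in footprints (triangles), for genes with a mean of at least 5 scaled FPKM. X stands lowest in both assays, at -0.24 and -0.26.

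X-linked genes were compared within 5 classes of promoter GC content: in every class the X median in RNA was lower than the autosomal one, with X medians of -0.21 to -0.43. Gene span was looked at among protein-coding genes with a mean of at least 5 scaled FPKM. Of those under 5 kb 20.8% rose in footprints and 5.04% fell, while of those of 100 to 200 kb 6.67% rose and 27.3% fell. Of the 35 genes over 200 kb 11.4% rose and 22.9% fell. In RNA 9.14% of such genes under 5 kb counted as higher and 4.79% as lower. Whether gene span, the Rn45s share or depth had a part in the differences was not tested. Without the RNA libraries numbered 1 and mock RNA 3, which carried the most Rn45s and the lowest depth, 17 of 19 germline genes and 15 of 42 genes of the 2-cell list counted as lower, and 9 of 22 sterol genes as higher. Under that setting 13.8% of all genes counted as lower and 9.64% as higher, so the list counts are not comparable with those over 12 libraries.

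Whether the RNA difference between the sets depended on the inhibitor was tested as an interaction. This interaction, which is the set difference in inhibitor libraries minus the mean of that in GFP and mock libraries, passed for 3 of 12557 genes (0.0239%) in limma, and 143 had an unadjusted p under 0.05. With the library number as a replicate block, 3 genes passed as well, and 281 had an unadjusted p under 0.05. The 3 were Rnu6, the U6 spliceosomal RNA, Mir7227 and DQ267102. These RNA libraries are also the ones that chose the sets, and the 3 passed the minimum mean only through the libraries where they were high, so their p carries no weight. All were listed at 0 in 10 of 12 RNA libraries and were present in inhibitor RNA 3 and 4, Rnu6 at 147 and 155 scaled FPKM, Mir7227 at 8.46 and 9.90, and DQ267102 at 5.79 and 6.77. In footprints Rnu6 stood at 0 to 24559 and was present in 11 of 12 libraries. With a minimum mean of 5 scaled FPKM 0 genes passed, and 9, 10 and 13 passed without inhibitor RNA 2, inhibitor RNA 3 and mock RNA 4. In the other direction 2410021H03Rik, 2010204K13Rik and Uchl4 had the smallest p and did not pass. A gene that did not pass is not shown to differ alike in all treatments.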

How the data were processed

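The authors deposited FPKM values per gene symbol, 1 table for RNA and 1 for ribosome footprints. CASAVA 1.8.2, TopHat, Bowtie2, RSEM and the mm10 genome are named, per the submitters' processing notes; the sources used here give neither read counts nor strand use. The tables hold 23917 symbols, of which 23768 matched RefSeq.

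FPKM were divided per library by the median ratio to the geometric mean over genes at 5 FPKM or more in every library of a table (1717 in RNA, 2960 in footprints). Values were analysed as log2(scaled FPKM + 1), a scale that understates the change of low genes, for genes with a mean of at least 0.5. Footprints and the interaction were tested with limma 3.58.1 (R 4.3.3, trended and robust, treatment as a term, two-sided, Benjamini-Hochberg adjustment, threshold 0.05), a script tested on simulated data. Other steps used Python 3.11.15, numpy 2.4.6, pandas 2.3.3 and matplotlib 3.10.9. Relative depth came from the steps between values of 0.06 to 0.3 FPKM, a range chosen after seeing the data.

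The division of the libraries, the 42 gene lists and the rules below were chosen with earlier results of these data known. Named genes were the 12 largest RNA differences each way with a mean of at least 5 scaled FPKM, the 6 largest footprint differences each way, the 3 smallest interaction p each way and, per list, the 3 largest RNA differences with a mean of at least 1 and the first 3 members. Motifs and groupings by chromosome, promoter and gene span were chosen after seeing the data. Same-numbered RNA libraries of different treatments deviated together in 12 of 12 pairs (r = 0.23 to 0.67), so library number was used as a block in an alternative fit of the interaction. In footprints 10 of 12 pairs were over 0.1, and mock 1 and 2 followed the other treatments' 2 and 1 (r = 0.48 to 0.72), which leaves the sets as they are. The footprint test was also run on the mean of the 3 treatments per library number, an alternative chosen after seeing the data that takes the numbers as labelled. Some genes that these rules name are not reported here.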

Additional observations from a re-analysis of the deposited data

Results flagged for a closer look

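Among 152 groups of 6 libraries, taken over 39 named genes, the Rn45s share and relative depth, 10 held a library far from the other 5. For normally spread values chance flags about 1 in 20 groups. Where 5 libraries stand at 0, the other is flagged whatever its value, as for Mir3063 and Snora61 in RNA libraries 1 and 2. In RNA libraries 1 and 2, D030040B21Rik stood highest in inhibitor 1 at 1.77 scaled FPKM, Mir3063 in inhibitor 2 at 0.766, A330041J22Rik in GFP 2 at 0.116 and Snora61 in mock 1 at 30.6. In RNA libraries 3 and 4, Rpl14-ps1 stood highest in GFP 4 at 329.6, 2010204K13Rik stood highest in GFP 3 at 12.03 and Gm6682 stood lowest in mock 3 at 0. In footprint libraries 1 and 2, Snora74a stood lowest in inhibitor 2 at 16.0 and Rnu7 was listed at 0 there. In footprint libraries 3 and 4, Snord55 stood lowest in mock 3 at 2.12.

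The set difference in RNA differed between inhibitor and control libraries by the interaction test for Rnu6 (7.25, log2), Mir7227 (3.34) and DQ267102 (2.86). All 3 were listed at 0 in 10 of 12 RNA libraries, and passed the minimum mean only through the other 2, so these fitted values depend on the pseudocount and are not folds.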

How the results depend on the processing

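In RNA, the 525 higher and 477 lower genes became 316 and 210 with a pseudocount of 5, 1326 and 8 with FPKM as deposited, 962 and 1612 without the libraries numbered 1, 124 and 103 with a minimum difference of 1, and 1210 and 1737 without the RNA libraries numbered 1 and mock RNA 3; the lower count was 269 at a mean of at least 5. Leaving out 1 library gave 512 to 819 higher (819 without mock RNA 2) and 481 to 666 lower. In footprints, the 681 higher and 1651 lower genes became 31 and 605 with FPKM as deposited, 1039 and 1019 with quantile normalization, 52 and 146 without the libraries numbered 1, 367 and 979 without the 2 shallowest libraries (inhibitor 3 and mock 4), and 8 and 43 over means of each library number; the lower count was 784 at a mean of at least 5. Leaving out 1 library gave 441 to 960 higher and 996 to 2124 lower. Genes different in both assays (182 higher, 250 lower) became 15 and 6 with FPKM as deposited, 37 and 77 without the libraries numbered 1, and 281 and 640 without the RNA libraries numbered 1 and mock RNA 3; the lower count was 124 with a pseudocount of 5 and 107 at a mean of at least 5. Leaving out 1 library gave 146 to 198 and 194 to 305. Fits without whole libraries use fewer samples, and a rule over fewer RNA libraries is easier to meet. The cause of the other changes was not tested.

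The 3 interaction genes became 1 with a pseudocount of 0.1, 0 at a mean of at least 5 and 5 with FPKM as deposited; leaving out 1 library gave 2 to 13. With library number as a replicate block, 3 genes passed. No paired analysis was possible for the set difference because the sets share no library number.

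With FPKM as deposited, under the shift of all genes by 0.60 in RNA and -0.27 in footprints, RNA medians changed sign for FGF feedback (0.63), BMP and ID (0.23), serum response (0.49), immediate early (0.33), p53 (0.52), NRF2 (0.31), G2 and M phase (0.61), replication-dependent histones (0.43) and chromosome X genes (0.52). So did footprint medians of core pluripotency (-0.015), matrix (-0.065), ribosomal protein (-0.037) and complex I genes (-0.089), and RNA differences of Asns (0.13), Hsp90aa1 (0.22), Ccng1 (0.056), Mdm2 (0.095), Pola1 (0.11), Rrm2 (0.33), H3f3b (0.059), H2afx (0.087), Gabarapl2 (0.19) and Rpl10 (0.37). RNA medians also changed sign without GFP RNA 2 for formative (-0.032, range -0.032 to 0.26 over left-out libraries) and FGF feedback genes (0.010, range -0.15 to 0.010), for BMP and ID (0.041), serum response (0.064) and ATF4 genes (-0.0013) without the libraries numbered 1, and for FGF feedback (0.050), serum response (0.063) and mitochondrial ribosomal protein genes (-0.0089) without the RNA libraries numbered 1 and mock RNA 3. Small nucleolar RNAs turned to -0.29 at a mean of at least 5 and -0.13 without mock RNA 4 (range -0.13 to 0.50 over left-out libraries), and the footprint median of interferon genes to 0.42 at a mean of at least 5. Alternatives that leave out the RNA libraries numbered 1 with mock RNA 3, or the shallowest footprint libraries, or that average each library number, were chosen after seeing the data. Unknown read counts limit what can be said of low genes.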
